A study of Mus musculus with 19 samples.

Results

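LKB1, the kinase encoded by *Stk11*, works in a complex with a STRAD pseudokinase (*Strada*, *Stradb*) and the scaffold MO25 (*Cab39*), and the salt-inducible kinases SIK1, SIK2 and SIK3 are among its substrates. These genes and the CRTC coactivators (*Crtc1*, *Crtc2*, *Crtc3*) were chosen by their symbols, and all 10 were found among the 53558 gene entries of the expression files. The 10 members also passed the filter on low counts, which left 13986 genes for testing.

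Active LKB1 phosphorylates a loop in the kinase domain of each SIK and thereby switches it on. SIKs in turn phosphorylate the CRTCs, which are then held in the cytoplasm by 14-3-3 proteins. When SIKs are inactive, for example after phosphorylation by protein kinase A (PKA), CRTCs enter the nucleus and act with CREB at its target genes, and *Sik1* is itself a CREB target. In lung adenocarcinoma *Stk11* is a frequently inactivated tumor suppressor, and SIKs are known as mediators of that suppression.

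Neoplastic cells were sorted from lung tumors of *R26*LSL-tdTomato, *H11*LSL-Cas9 mice on a mixed C57BL/6J:129 background, 6 to 12 weeks old when the tumors were initiated. Each mouse received 1 lentiviral vector by the trachea, and tumors grew for 17 weeks. The sgInert group (7 libraries) received Lenti-sgNeo1/sgNT1/sgNeo2/Cre, the sgCebpa/b/d group (7 libraries) received Lenti-sgCebpa/sgCebpb/sgCebpd/Cre against 3 C/EBP transcription factor genes, and the sgLkb1 group (5 libraries) received Lenti-sgLkb1. Cre from the vector switched on tdTomato and Cas9 in the transduced cells of every group, so the controls share those alleles. Libraries pool edited cells, which can differ in the alleles they carry. Sorting removed dead cells and cells with hematopoietic or endothelial surface markers.

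RSEM expected counts summed to 2760731 to 9944134 per library. The epithelial markers had counts in every group. The alveolar type II marker *Sftpc* stood at 9638 to 17448 CPM, the counts scaled to a common library size. Against sgInert it was lower in sgLkb1 (log2 fold change -0.39, edgeR adjusted p = 0.0324) and sgCebpa/b/d (-0.31, edgeR adjusted p = 0.0458). *Krt18* was higher in both (0.70, edgeR adjusted p = 0.00592, and 0.59, edgeR adjusted p = 0.00701). The other 4 of 6 epithelial markers did not pass 0.05 in edgeR, and limma did not call *Sftpc*. All 5 sgLkb1 libraries came from females, against 3 of 7 sgInert and 4 of 7 sgCebpa/b/d libraries. Titles gave a ZR-type animal number to 4 sgInert libraries. An MT-type number went to 3 sgInert, 4 sgCebpa/b/d and 3 sgLkb1 libraries. No number was given to 3 sgCebpa/b/d and 2 sgLkb1 libraries. In sgCebpa/b/d the 3 males were the libraries with no number, and the 4 females were those with MT-type numbers. The 5 libraries with no number stood apart from the other 14 on the first principal component of the 500 most variable genes, at 27.9 to 43.8 against -29.9 to 3.78, and this component held 34.2% of the variance. Results that rest on them are therefore given with and without them. Some libraries share an animal number, namely sgInert libraries 2 and 5, sgCebpa/b/d libraries 1, 3 and 4, and sgLkb1 libraries 2 and 3. Not every library is thus a separate animal, and p-values may in part measure the spread between tumors of 1 mouse. All of these libraries carry MT-type numbers, so this limit weighs most on fits of MT-numbered libraries alone, which hold fewer animals than libraries in every group.

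In sgInert tumor cells the members spanned a wide range of levels, from *Cab39* at the top to *Crtc1* at the bottom. Levels of different genes are compared in TPM, the RSEM level corrected for transcript length. *Cab39* had 94.4 ± 13.0 TPM (SD, n = 7), against 21.6 ± 3.51 TPM for *Stk11*, its kinase partner. *Stradb* had 12.8 ± 1.67 TPM and *Strada* 7.62 ± 2.70 TPM. Among the SIKs, *Sik3* had 14.7 ± 3.51 TPM, *Sik1* 12.1 ± 4.99 TPM and *Sik2* 3.56 ± 1.49 TPM. *Crtc2* led the CRTCs at 10.6 ± 2.30 TPM, ahead of *Crtc3* at 6.07 ± 3.37 TPM and *Crtc1* at 1.97 ± 1.10 TPM.

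No pair of neighbours in this order differed at an adjusted p under 0.05 in an exact two-sided sign-flip permutation test over the 7 libraries, with adjustment over the 9 neighbouring pairs, although 4 pairs had an unadjusted p under 0.05. *Cab39* was above *Stk11*, and *Stk11* above *Sik3*, in 7 of 7 libraries (exact p = 0.0156 for each, the smallest this design allows, adjusted p = 0.0703). *Crtc3* was above *Sik2*, and *Sik2* above *Crtc1*, in 6 of 7 libraries (exact p = 0.0312, adjusted p = 0.0703). The pairs from *Sik3* down to *Crtc3* were ordered alike in 5 of 7 libraries, with adjusted exact p-values of 0.197 to 0.641, so their order is not settled.

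**Figure D1:**
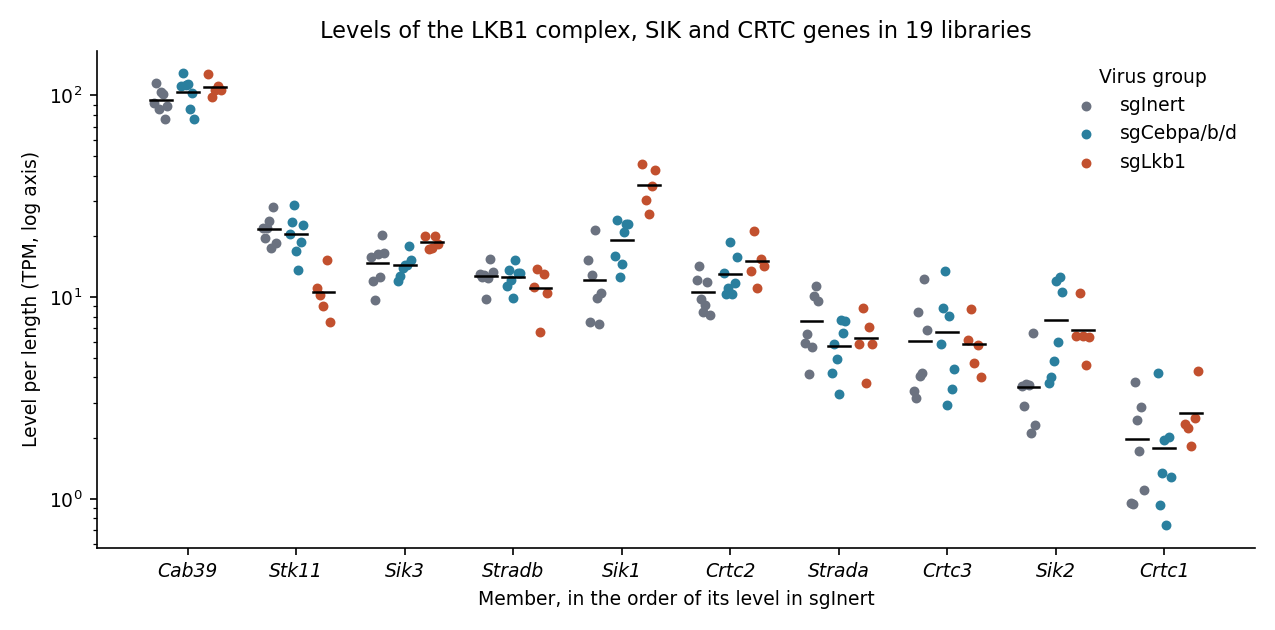
Level per length (TPM, log axis) of each member in the 7 sgInert, 7 sgCebpa/b/d and 5 sgLkb1 libraries. Each point is a library and each bar a group mean. *Cab39* sits above all other members in each group, and in sgLkb1 the group mean of *Stk11* is lower, and that of *Sik1* higher, than in the other groups.

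The kinase that the sgLkb1 vector targets was lower in its libraries. *Stk11* (chr10:80115803-80130682, plus strand, GRCm38) stood at 9.23, 7.53, 7.58, 12.5 and 8.30 CPM in sgLkb1 libraries 1 to 5, scaled by the trimmed mean of M-values (TMM). The sgInert libraries held 19.5 to 22.9 CPM with a median of 21.4. The sgCebpa/b/d libraries held 14.5 to 26.1 CPM with a median of 18.5. Every sgLkb1 library lay below every library of the other groups, and sgLkb1 library 4 was the highest of the 5. In TPM that library, at 15.25, lay above sgCebpa/b/d library 5, at 13.6, and below every sgInert library.

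Against sgInert, *Stk11* was 2.36-fold lower in sgLkb1 (log2 fold change -1.24, SE 0.17, 95% interval -1.60 to -0.89, edgeR adjusted p = 1.07e-04). Against sgCebpa/b/d it was 2.12-fold lower (log2 fold change -1.09, SE 0.17, edgeR adjusted p = 2.84e-04). The transcript was thus reduced and not absent, with 48 to 127 expected counts per sgLkb1 library, and the abundance-weighted transcript length was 1267 to 1759 bases in sgLkb1 against 1247 to 1676 bases in sgInert. In bulk samples, fewer cells with the transcript and less transcript per cell cannot be told apart. *Stk11* overlaps *Cbarp* on the opposite strand by 232 bases in the GENCODE vM21 annotation, and whether the counting used strand is not given in the sources used here.

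*Stk11* in sgCebpa/b/d was not distinguishable from sgInert (log2 fold change -0.15, 95% interval -0.46 to 0.16, edgeR adjusted p = 0.596). The sgLkb1 difference kept its call in all 13 other fits and with each library left out. In MT-numbered libraries alone, 3 in each of these groups with some from the same animal, it was -1.16 (edgeR adjusted p = 0.0102). Without the libraries that lack an animal number it was -1.21 (edgeR adjusted p = 0.00193). With libraries of the same animal summed it was -1.19 (edgeR adjusted p = 0.00178).

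None of the 3 partner genes of LKB1 was called in edgeR, DESeq2 or limma, and *Stradb* alone had an unadjusted p under 0.05 in edgeR. Between sgLkb1 and sgInert edgeR called 5.78% of all genes, and 18.5% had an unadjusted p under 0.05. Counts in 3 genes cannot be set apart from these shares. *Cab39*, whose product MO25 stabilizes the complex, stood at 265, 247, 266, 251 and 249 CPM in sgLkb1 and at 215 to 274 CPM in sgInert, with a median of 244. Its log2 fold change was 0.05, with a 95% interval of -0.10 to 0.20 (edgeR adjusted p = 0.789). This interval was the narrowest of the 10 members, and the groups overlapped.

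*Stradb*, which encodes the second STRAD pseudokinase, stood at 17.1, 22.1, 10.3, 18.3 and 17.0 CPM in sgLkb1 against 17.0 to 26.8 CPM in sgInert (median 22.0), a log2 fold change of -0.41 (95% interval -0.81 to -0.02, edgeR adjusted p = 0.242). *Strada* stood at 8.88, 14.6, 5.46, 10.8 and 10.9 CPM in sgLkb1 against 8.75 to 26.1 CPM in sgInert (median 12.4), a log2 fold change of -0.58 (95% interval -1.23 to 0.07, edgeR adjusted p = 0.334). For both STRAD genes sgLkb1 library 3 was the lowest of its group, sgInert library 6 was the highest of its own, and the groups overlapped. *Strada* shares 4761 bases on its own strand with *Ccdc47*, a gene with up to 3293 counts in a library, so its estimate depends on how RSEM divided shared reads. In sgCebpa/b/d the log2 fold changes against sgInert were 0.14 for *Cab39*, -0.02 for *Stradb* and -0.46 for *Strada*, with edgeR adjusted p-values of 0.234 to 0.966.

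Ratios within a library, in TPM, set the partners beside *Stk11*. The ratio of *Cab39* to *Stk11* lay between 2.73 and 5.85 in sgInert, 3.34 and 6.76 in sgCebpa/b/d, and 7.30 and 14.05 in sgLkb1. The ratio of the summed STRAD transcripts to *Stk11* lay between 0.647 and 1.28 in sgInert, 0.598 and 1.69 in sgCebpa/b/d, and 1.16 and 2.22 in sgLkb1, so that sgLkb1 overlapped both other groups. *Stradb* exceeded *Strada* in all 19 libraries, with median ratios of 1.73, 2.33 and 1.80 in sgInert, sgCebpa/b/d and sgLkb1. These ratios are descriptions with no test, and those with *Stk11* as the divisor rest on its difference.

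Among the kinases that LKB1 activates, *Sik1* was the member with the largest higher value in sgLkb1. *Sik1* (chr17:31844250-31855804, minus strand, GRCm38) stood at 131, 92.5, 77.4, 98.2 and 131 CPM in sgLkb1 libraries 1 to 5. In sgInert it ran from 25.4 to 68.7 CPM with a median of 36.8, so that every sgLkb1 library lay above every sgInert library. The 2 highest sgLkb1 values were those of the libraries with no animal number, and the highest sgInert value was that of a ZR-numbered library.

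The log2 fold change between sgLkb1 and sgInert was 1.38 (SE 0.24, edgeR adjusted p = 8.79e-04), with a 95% interval of 1.86 to 3.65 as a fold. It was called in all 13 other fits and with each library left out. In MT-numbered libraries alone the log2 fold change was 1.47 (edgeR adjusted p = 7.77e-04), and without the libraries that lack an animal number it was 1.14 (edgeR adjusted p = 0.0160). With libraries of the same animal summed it was 1.38 (edgeR adjusted p = 0.00348). With sex as a covariate it was 1.52 (edgeR adjusted p = 5.81e-04). No sgLkb1 library came from a male, so the effect of sex was estimated from the other groups. In sgCebpa/b/d sex and title series coincided, so this fit cannot tell them apart there.

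Endothelial and fibroblast markers had higher median sums in sgLkb1 than in sgInert. Summed over 4 endothelial markers, the level was 5.44 to 34.3 CPM in sgInert and 36.6 to 151 CPM in sgLkb1, and all 4 had counts in both groups. Summed over 5 fibroblast markers, it was 6.24 to 105 CPM in sgInert and 72.6 to 194 CPM in sgLkb1, with counts for all 5. Summed over 6 immune markers, it was 5.00 to 16.5 CPM in sgInert, where *Adgre1* and *Cd3e* were at 0 counts, and 5.47 to 62.8 CPM in sgLkb1. In MT-numbered libraries the endothelial sums were 13.3 to 34.3 CPM in sgInert and 36.6 to 76.2 CPM in sgLkb1, and the fibroblast sums were 6.24 to 16.2 CPM and 72.6 to 187 CPM. Immune sums there overlapped, at 6.11 to 10.8 CPM in sgInert and 5.47 to 12.3 CPM in sgLkb1. The part of these cells in the *Sik1* difference was not tested.

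*Sik2*, which encodes another kinase of the family, had a value in sgLkb1 that did not pass the test. *Sik2* (chr9:50892801-51009073, minus strand, GRCm38) stood at 19.8, 30.4, 17.3, 11.7 and 17.8 CPM in sgLkb1 and at 5.68 to 19.4 CPM in sgInert, with a median of 9.11. The groups overlapped through sgInert library 6, at 19.4 CPM, while the next sgInert library had 11.1 CPM. *Sik2* overlaps *Ppp2r1b* on the opposite strand by 1429 bases, a gene with up to 98 counts in a library, and the strand setting is unknown here too. The log2 fold change was 0.93 (95% interval 0.24 to 1.62, edgeR adjusted p = 0.109). Without sgInert library 6 it was 1.19 and passed (edgeR adjusted p = 0.0287), and with sex as a covariate it was 1.37 and passed (edgeR adjusted p = 0.0110). The limit of the sex covariate given for *Sik1* holds here too. The *Sik2* difference did not pass in 11 of 13 other fits, nor in 18 of 19 fits with 1 library left out. Those 19 fits ranged from 0.71 to 1.19, with the highest edgeR adjusted p, 0.297, without sgLkb1 library 2.

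*Sik3*, the SIK with the highest level in most sgInert libraries, stood at 56.2, 47.8, 52.5, 59.9 and 52.0 CPM in sgLkb1 and at 40.8 to 68.2 CPM in sgInert (median 50.2). Its log2 fold change was 0.04 (95% interval -0.24 to 0.32, edgeR adjusted p = 0.925), and the groups overlapped. The SIK genes thus had unlike values in the same libraries, with *Sik1* called, *Sik2* short of the threshold and *Sik3* near 0. Whether these changes differ from each other was not tested.

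**Figure D2:**
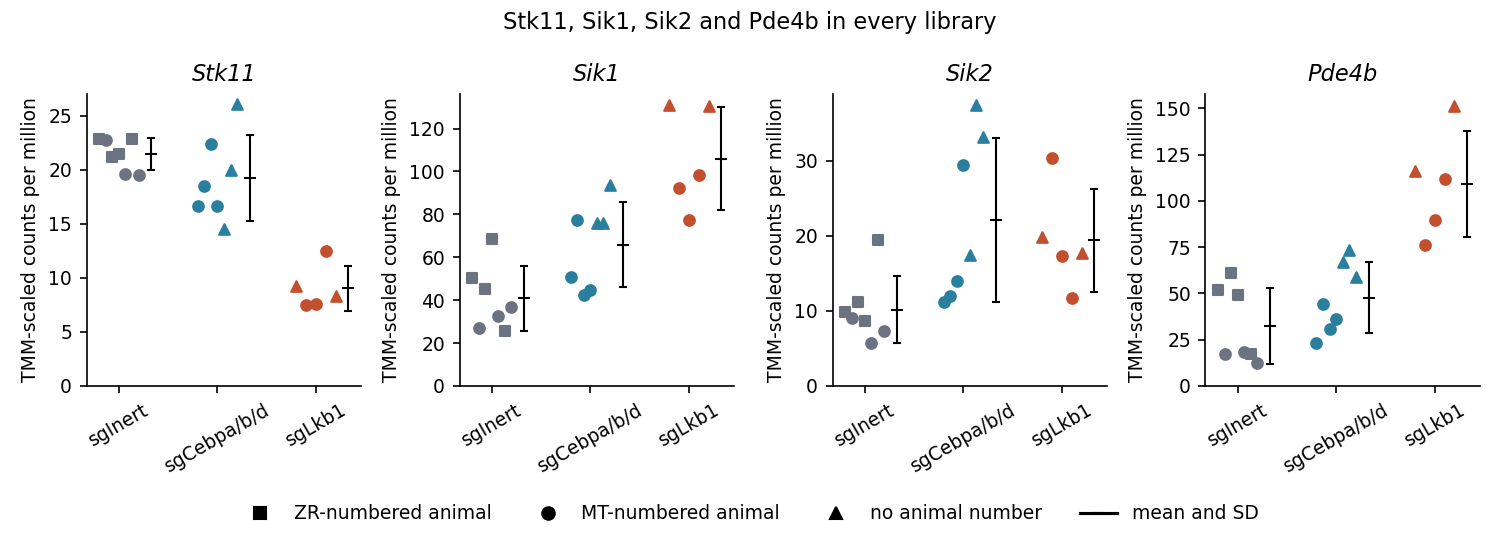
TMM-scaled CPM of *Stk11*, *Sik1*, *Sik2* and *Pde4b* in every library (points, shaped by the animal number in the title), with the group mean and SD beside them. *Stk11* in sgLkb1 (7.53 to 12.5) lies below all other libraries, *Sik1* in sgLkb1 (77.4 to 131) lies above all sgInert libraries, and *Sik2* overlaps between groups.

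In sum over the SIKs, sgLkb1 libraries held 49.7 to 72.3 TPM, sgCebpa/b/d libraries 31.5 to 53.7 TPM and sgInert libraries 22.5 to 41.4 TPM. These sums must be read against the scale, since in log2(TPM + 1) the median of all genes was 0.18 in sgLkb1 against sgInert. *Sik3*, near 0 in scaled counts, had a mean of 18.7 TPM in sgLkb1 and 14.7 TPM in sgInert. *Sik1* made up 21.6% to 51.8% of the SIK transcripts in sgInert and 51.9% to 63.4% in sgLkb1, while sgCebpa/b/d libraries had 35.7% to 59.0%. *Sik1* exceeded *Sik3* per length in 5 of 5 sgLkb1 libraries, 6 of 7 sgCebpa/b/d libraries and 2 of 7 sgInert libraries. In rank by mean log2 TPM, *Sik1* was the fifth of the 10 members in sgInert, the third in sgCebpa/b/d and the second, after *Cab39*, in sgLkb1.

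Of the 3 CRTC coactivators, which the SIKs restrain, none was called between sgLkb1 and sgInert in edgeR, DESeq2 or limma. None had an unadjusted p under 0.05 in edgeR. The shares of all genes in edgeR were 5.78% and 18.5%, from which counts in 3 genes cannot be set apart. *Crtc2* stood at 17.8, 24.1, 16.5, 18.2 and 18.5 CPM in sgLkb1 and at 13.4 to 18.6 CPM in sgInert (median 16.2), a log2 fold change of 0.25 (95% interval -0.05 to 0.55, edgeR adjusted p = 0.369). *Crtc3* stood at 13.4, 10.8, 12.1, 11.8 and 10.2 CPM in sgLkb1 and at 9.42 to 30.1 CPM in sgInert (median 12.6), a log2 fold change of -0.33 (95% interval -0.91 to 0.25, edgeR adjusted p = 0.589). *Crtc1* was low throughout, at 4.27 to 10.97 CPM in sgLkb1 and 4.34 to 9.55 CPM in sgInert, a log2 fold change of 0.25 (95% interval -0.31 to 0.82, edgeR adjusted p = 0.692). For all 3 the groups overlapped, and the highest *Crtc3* value was again that of sgInert library 6.

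*Crtc1* had 11 to 74 expected counts per library. The abundance-weighted lengths of *Crtc1* (1492 to 7080 bases) and *Crtc3* (1466 to 5104 bases) varied widely between libraries, so their TPM depend on which transcripts RSEM assigned. The difference of *Crtc3* between sgLkb1 and sgInert was 0.16 in MT-numbered libraries, against -0.33 over all libraries. In log2(TPM + 1) it was 0.05, on a scale where the median of all genes lay at 0.18. *Crtc3* also overlaps the antisense gene *Gm15880* by 8368 bases, which had up to 13 counts in a library. *Crtc2* held 44.0% to 77.8% of the CRTC transcripts in sgInert and 61.4% to 66.0% in sgLkb1.

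**Figure D3:**
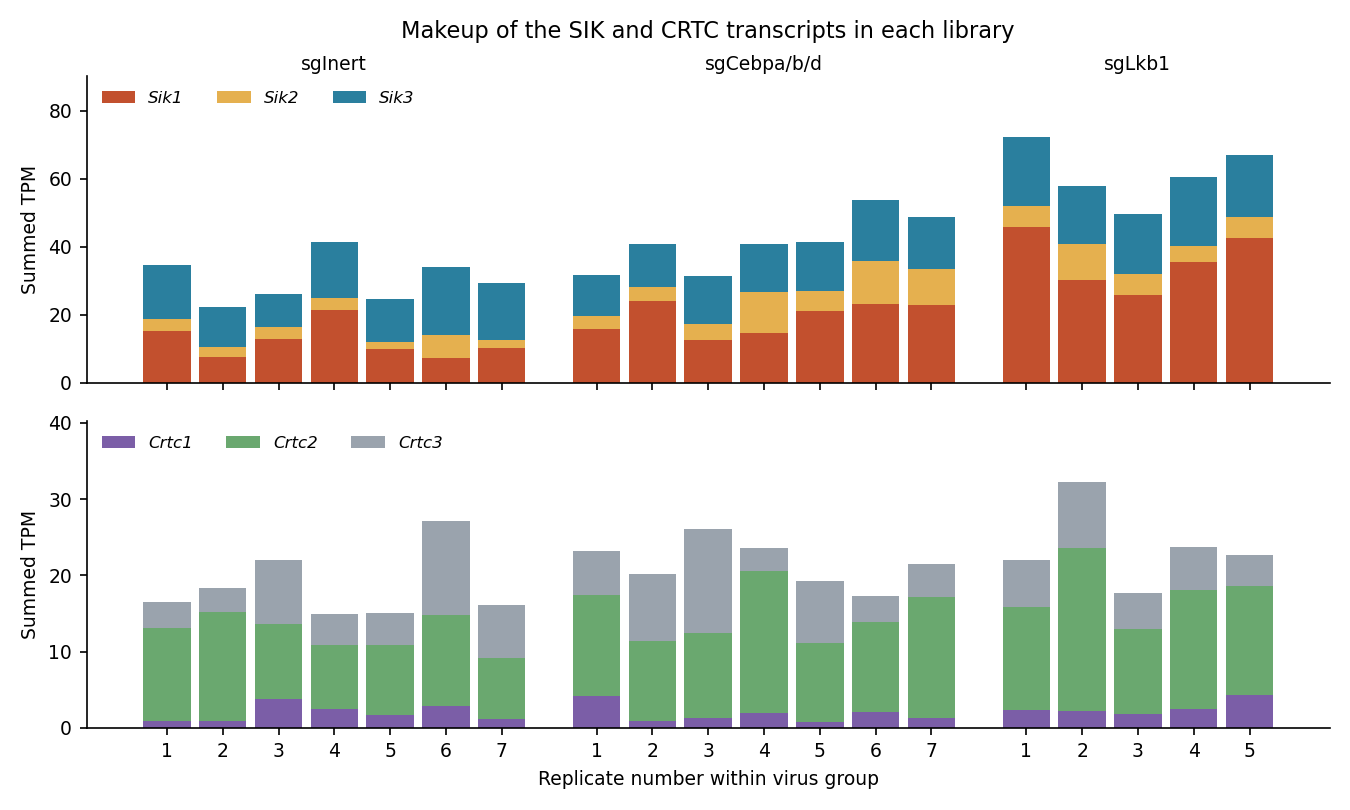
Summed TPM of the 3 SIK genes (top) and the 3 CRTC genes (bottom) in each library, stacked by gene, with libraries grouped by vector. The SIK sum runs from 22.5 to 41.4 TPM in sgInert and from 49.7 to 72.3 TPM in sgLkb1, where *Sik1* takes 51.9% to 63.4% of it. In log2(TPM + 1) the median of all genes is itself 0.18 higher in sgLkb1 than in sgInert.

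Over the 10 members, 2 were called between sgLkb1 and sgInert, *Sik1* higher and *Stk11* lower, beside 5.78% of all genes tested (2.81% higher and 2.97% lower). Both also had an absolute log2 fold change above 1, beside 3.01% of genes, and 4 of 10 had an unadjusted p under 0.05, beside 18.5%. The median log2 fold change of the members was 0.04, against -0.01 for all genes. The same 2 members had groups that did not overlap, beside 4.15% of all genes. Since *Stk11* is the target of the vector, 1 of the other 9 members was called.

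C/EBP factors help maintain alveolar type II cells, and the vector against their genes gives a second targeted group to set beside sgLkb1. Between sgCebpa/b/d and sgInert, *Sik1* and *Sik2* were called higher and none lower, 2 of 10 members beside 10.1% of all genes tested (4.73% higher and 5.36% lower). No member had groups that did not overlap, beside 3.37% of all genes. Only *Sik2* also had an absolute log2 fold change above 1, beside 4.65%. This comparison shares its sgInert libraries with the sgLkb1 comparison.

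*Sik2* stood at 11.2 to 37.4 CPM in sgCebpa/b/d, with a median of 17.4, and its log2 fold change against sgInert was 1.12 (SE 0.31, edgeR adjusted p = 0.0208). *Sik1* stood at 42.5 to 93.5 CPM, with a median of 76.1, and its log2 fold change was 0.70 (SE 0.22, edgeR adjusted p = 0.0457). The high values came from sgCebpa/b/d libraries 4, 6 and 7 for *Sik2* and from 2, 5, 6 and 7 for *Sik1*. Libraries 5, 6 and 7 are those that lack an animal number, and also the only males of the group. Without libraries that lack a number, neither was called, at log2 fold changes of 0.72 for *Sik2* (edgeR adjusted p = 0.273) and 0.41 for *Sik1* (edgeR adjusted p = 0.395). In MT-numbered libraries alone *Sik1* was called at 0.75 (edgeR adjusted p = 0.0360) and *Sik2* was not at 1.19 (edgeR adjusted p = 0.0880).

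Both calls were also lost on leaving out single libraries. *Sik1* was lost in 12 of 19 such fits, those without sgInert library 2, 3, 5, 6 or 7, sgCebpa/b/d library 2, 5, 6 or 7, or sgLkb1 library 2, 4 or 5, with log2 fold changes of 0.59 to 0.72 and adjusted p-values of up to 0.105. *Sik2* was lost in 2 of 19, those without sgCebpa/b/d library 6 (0.95, edgeR adjusted p = 0.0580) or 7 (edgeR adjusted p = 0.0529). Where sgCebpa/b/d libraries had no animal number, the endothelial sum was 150 to 194 CPM and the immune sum 51.5 to 59.6 CPM, against 11.8 to 39.5 CPM and 4.35 to 9.55 CPM in MT-numbered ones. Fibroblast sums were 136 to 189 CPM and 46.5 to 179 CPM. All 4 endothelial, 6 immune and 5 fibroblast markers had counts in the group, and their part in the SIK values was not tested.

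Set side by side, *Sik1* was higher than sgInert by 1.38 in sgLkb1 and by 0.70 in sgCebpa/b/d on the log2 scale, and *Sik2* by 0.93 and 1.12. The direct difference between sgLkb1 and sgCebpa/b/d was 0.68 for *Sik1* (95% interval 0.20 to 1.17, edgeR adjusted p = 0.0950), which passed in 5 of 13 other fits, among them MT-numbered libraries alone (0.72, edgeR adjusted p = 0.0380), and once when sgCebpa/b/d library 7 was left out (0.80, edgeR adjusted p = 0.0478). For *Sik2* it was -0.19 (95% interval -0.88 to 0.49, edgeR adjusted p = 0.815), and its sign turned in MT-numbered libraries (0.23). *Stk11* was the only member of 10 called in this comparison, beside 5.96% of all genes tested (3.12% higher and 2.83% lower), and the only one without overlap, beside 5.08%. Its absolute log2 fold change was above 1, beside 2.8% of genes. The other 7 members had log2 fold changes of -0.39 (*Stradb*) to 0.65 (*Crtc1*).

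**Figure D4:**
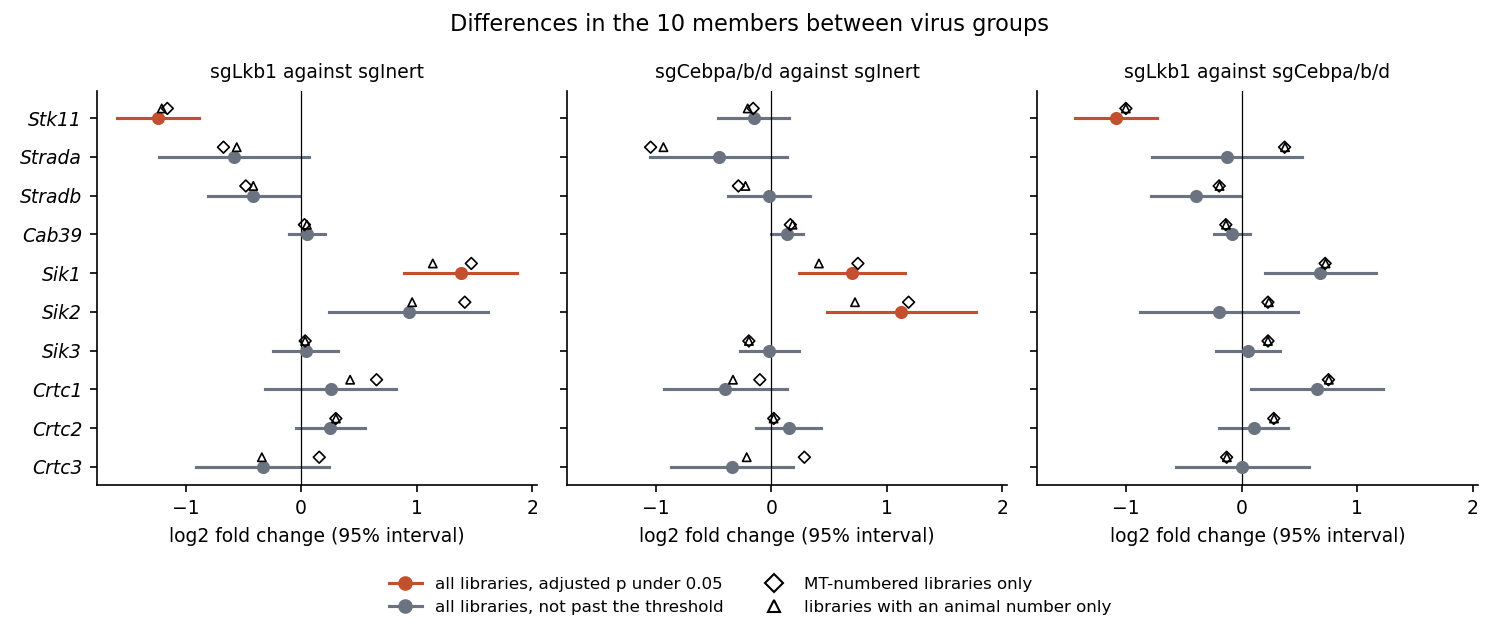
Log2 fold change with its 95% interval for the 10 members in each comparison over all libraries (circles), beside the values in MT-numbered libraries only (diamonds) and in libraries with an animal number only (triangles). *Stk11* lies left of 0 in both sgLkb1 comparisons by every measure, and *Sik1* against sgInert lies at 1.14 to 1.47 in sgLkb1.

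None of 5 genes of other proteins that handle LKB1, among them the MO25 paralog *Cab39l* and the HSP90 and CDC37 chaperones, passed in any comparison in edgeR. Of all genes tested, 5.78% to 10.1% passed in a comparison. Median log2 fold changes of the 5 genes were -0.10 in sgLkb1 and 0.01 in sgCebpa/b/d against sgInert. *Hsp90aa1*, at -0.80 in sgLkb1 against sgInert, had an unadjusted p under 0.05 in both sgLkb1 comparisons and was called against sgInert in DESeq2. *Cab39l* stood at 62.0 to 82.6 CPM in sgLkb1 and 74.1 to 105 CPM in sgInert. *Cab39* exceeded it per length in all 19 libraries, by 1.69 to 2.78-fold.

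Of the other kinases that LKB1 phosphorylates, 11 of 12 were tested and 1 was called in each comparison with sgInert, in edgeR. Of all genes tested, 5.78% were called in sgLkb1 and 10.1% in sgCebpa/b/d, so 1 call in a list of this size is near the general share. This was *Prkaa2*, which encodes a catalytic subunit of AMPK, the energy-sensing kinase. It stood at 41.1, 44.5, 45.5, 41.2 and 51.6 CPM in sgLkb1, at 34.5 to 61.7 CPM in sgCebpa/b/d and at 66.5 to 110 CPM in sgInert. Both targeted groups lay below every sgInert library, by log2 fold changes of -0.97 (SE 0.16, edgeR adjusted p = 6.75e-04) and -0.93 (SE 0.14, edgeR adjusted p = 1.63e-04). The median of the list was -0.02 in sgLkb1 and -0.11 in sgCebpa/b/d. Both limma fits also called *Nuak2*, another kinase of the list, in sgLkb1 against sgInert, which edgeR and DESeq2 did not.

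Class IIa histone deacetylases are also SIK substrates, and 1 of 4 was called in the same comparisons, beside 5.78% and 10.1% of all genes. *Hdac9* stood at 14.4, 13.95, 9.40, 8.26 and 10.2 CPM in sgLkb1, at 9.32 to 17.1 CPM in sgCebpa/b/d and at 19.3 to 38.0 CPM in sgInert. Every library of the targeted groups lay below every sgInert library, with log2 fold changes of -1.27 (SE 0.21, edgeR adjusted p = 7.73e-04) and -0.99 (SE 0.19, edgeR adjusted p = 0.00127). *Prkaa2* and *Hdac9* kept these calls in MT-numbered libraries alone.

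Of 10 CREB target genes tested in edgeR, 3 were called higher in sgLkb1 than in sgInert, beside 2.81% of all genes, and 2 in sgCebpa/b/d, beside 4.73%. The whole list was chosen with earlier results of these data known, so these counts are descriptions and no test of the list. None was called lower in either. DESeq2 and limma called *Per1*, a clock gene named here after its values were seen, in sgLkb1 as well. In edgeR it had a log2 fold change of 1.06 and an adjusted p of 0.0700. The log2 fold changes had list medians of 0.66 and 0.39 against -0.01 and 0.02 for all genes. *Pde4b*, a phosphodiesterase that degrades cAMP, stood at 116, 76.2, 89.5, 112 and 151 CPM in sgLkb1, at 23.2 to 73.3 CPM in sgCebpa/b/d and at 12.4 to 61.2 CPM in sgInert. Every sgLkb1 library was above every other library, by log2 fold changes of 1.76 against sgInert (SE 0.36, edgeR adjusted p = 0.00404) and 1.19 against sgCebpa/b/d (SE 0.35, edgeR adjusted p = 0.0470). The first was called in all 13 other fits and with each library left out, and in MT-numbered libraries it was 2.51 (edgeR adjusted p = 2.79e-05). The second was lost in 4 of 13 other fits, those with the replicate block (1.09, edgeR adjusted p = 0.193), with animals summed (1.07, edgeR adjusted p = 0.161), without unnumbered libraries (1.45, edgeR adjusted p = 0.0974) and with length offsets (edgeR adjusted p = 0.0540). It was also lost in 9 of 19 fits with 1 library left out, with adjusted p-values of up to 0.134, those without sgCebpa/b/d library 1, 2, 3, 4 or 7 or sgLkb1 library 1, 3, 4 or 5.

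*Fos* and *Dusp1*, immediate early genes that also rise during tissue dissociation, were called in both targeted groups against sgInert. *Fos* stood at 184 to 1613 CPM in sgInert, 1659 to 2732 CPM in sgLkb1 and 1608 to 3884 CPM in sgCebpa/b/d, log2 fold changes of 1.18 (edgeR adjusted p = 0.0470) and 1.52 (edgeR adjusted p = 0.00364). *Dusp1*, a phosphatase of MAP kinases, had log2 fold changes of 0.91 (edgeR adjusted p = 0.0406) and 1.15 (edgeR adjusted p = 0.00319). In sgLkb1 the *Fos* call was lost in 11 of 19 fits with 1 library left out (adjusted p up to 0.110), those without sgInert library 1, 3 or 4, sgCebpa/b/d library 1, 3 or 4, or any sgLkb1 library. The *Dusp1* call there was lost in 7 of 19 (adjusted p up to 0.0945), those without sgInert library 1, 3 or 4 or sgLkb1 library 2, 3, 4 or 5, and in sgCebpa/b/d both calls held in all 19. In MT-numbered libraries alone both genes were called in sgLkb1 and neither in sgCebpa/b/d. Without the libraries that lack an animal number neither gene was called in either comparison, with adjusted p-values of 0.0550 to 0.111, and with title series as a covariate *Fos* was at 0.44 and 0.67. The part of dissociation in the *Sik1* values was not tested.

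**Figure D5:**
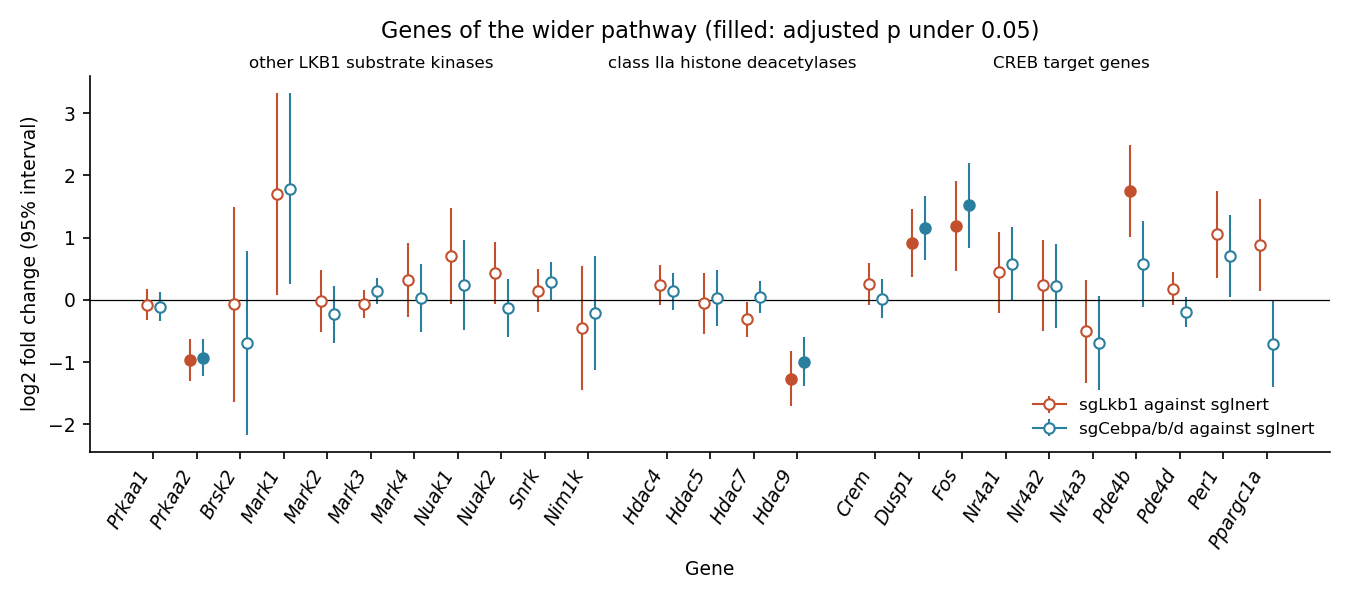
Log2 fold change against sgInert, with 95% intervals, of the other LKB1 substrate kinases, class IIa histone deacetylases and CREB target genes that were tested, for sgLkb1 and sgCebpa/b/d. Filled points passed an adjusted p of 0.05, namely *Prkaa2* and *Hdac9* below 0, *Dusp1* and *Fos* above 0, and *Pde4b* above 0 in sgLkb1 alone, where the sgCebpa/b/d value was 0.57.

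*Ppargc1a*, a coactivator of oxidative metabolism and the other CREB target called between sgLkb1 and sgCebpa/b/d, stood at 45.2 to 87.4 CPM in sgLkb1 and 11.4 to 30.0 CPM in sgCebpa/b/d, a log2 fold change of 1.58 (SE 0.36, edgeR adjusted p = 0.00877). It lay at 11.4 to 65.5 CPM in sgInert. With libraries of the same animal summed the call was lost (1.45, edgeR adjusted p = 0.0515). Between sgLkb1 and sgCebpa/b/d, 2 of 10 CREB targets tested were called higher in edgeR, beside 3.12% of all genes. Both limma fits also called *Pde4d* there, which edgeR and DESeq2 did not. The PKA subunit gene *Prkar2a* was higher in sgLkb1 than in sgCebpa/b/d by 0.50 (edgeR adjusted p = 0.0145). This call was lost in MT-numbered libraries (0.36, edgeR adjusted p = 0.0633) and without unnumbered ones (0.36, edgeR adjusted p = 0.0842). *Prkar2a* was 1 of 6 PKA subunits called in edgeR, beside 5.96% of all genes. Both limma fits also called the subunit gene *Prkar1a* in sgLkb1 against sgInert, which edgeR and DESeq2 did not. The 14-3-3 gene *Ywhaz* was higher in sgCebpa/b/d than in sgInert by 0.29 (edgeR adjusted p = 0.0208), 1 of 7 of its list, beside 10.1% of all genes, and lost the call in 5 of 13 other fits. Neither the 4 calcineurin subunits tested nor the 5 CREB factors and coactivators had a called gene in any comparison in edgeR. The share of all genes called in a comparison was 5.78% to 10.1%. Among the calcineurin subunits 0 had an unadjusted p under 0.05 and 0 were called in DESeq2 or limma. *Creb1* had an unadjusted p under 0.05 in both sgCebpa/b/d comparisons and was called in DESeq2 between sgCebpa/b/d and sgInert, and *Atf1* had one between sgLkb1 and sgCebpa/b/d.

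The gene most like *Sik1* over the 19 libraries, of 13985 others, was *Pde4b*, with Pearson's r = 0.90 and Spearman's rho = 0.89 between their log2 CPM. Without the 2 libraries farthest from the median of *Sik1* r was 0.87, and after subtraction of group means it was 0.77. *Stk11* was most like *Anxa5* (r = 0.89, rho = 0.74), for which r fell to 0.41 after subtraction of group means, so that most of this likeness lay between the groups. *Sik2* was most like *Adamts10* (r = 0.87, rho = 0.90, within groups 0.80) and *Cab39* most like *Cd164* (r = 0.86, rho = 0.80, within groups 0.82). The best matches of the other 6 members, *Tox2* for *Strada*, *Gm38120* for *Stradb*, *Slc4a2* for *Sik3*, *Efcab2* for *Crtc1*, *Myo19* for *Crtc2* and *Gm21992* for *Crtc3*, had r of 0.75 to 0.84. Each is the highest of many correlations between libraries that share depth and batch, and is given with no p.

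Promoter sequences bear on the CREB targets, since CREB binds the letters TGACGTCA (CRE) and, less tightly, the core TGACG. RefSeq windows of 300 bases, from 250 before to 50 after a gene's start on GRCm38.p6, were given for 8 of the 10 members, all but *Sik1* and *Crtc2*. The CRE occurred on either strand in 1.79% of 32851 promoters and in none of the 8. The core, which each CRE contains on both strands, occurred in 20.8% of promoters and in 5 of the 8, those of *Stk11*, *Stradb*, *Cab39*, *Sik2* and *Sik3*. *Sik2* and *Sik3* are shown as the SIKs with and without a call in sgCebpa/b/d, and *Dusp1* and *Fos* as the CREB targets called in both targeted groups, with CRE and core letters in capitals.
Sik2, chr9:51009024-51009323, minus strand: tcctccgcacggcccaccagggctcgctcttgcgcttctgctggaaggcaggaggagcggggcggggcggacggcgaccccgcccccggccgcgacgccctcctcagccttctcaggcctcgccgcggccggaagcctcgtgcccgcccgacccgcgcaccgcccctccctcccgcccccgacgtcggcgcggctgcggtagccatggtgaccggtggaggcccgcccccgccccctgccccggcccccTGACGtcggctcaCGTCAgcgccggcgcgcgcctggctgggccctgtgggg
Sik3, chr9:46012570-46012869, plus strand: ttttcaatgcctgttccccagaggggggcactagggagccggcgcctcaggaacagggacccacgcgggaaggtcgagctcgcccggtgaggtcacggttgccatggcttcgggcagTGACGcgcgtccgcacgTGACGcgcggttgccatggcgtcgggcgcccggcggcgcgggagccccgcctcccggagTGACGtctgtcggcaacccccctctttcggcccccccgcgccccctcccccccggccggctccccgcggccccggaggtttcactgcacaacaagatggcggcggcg
Dusp1, chr17:26508423-26508722, minus strand: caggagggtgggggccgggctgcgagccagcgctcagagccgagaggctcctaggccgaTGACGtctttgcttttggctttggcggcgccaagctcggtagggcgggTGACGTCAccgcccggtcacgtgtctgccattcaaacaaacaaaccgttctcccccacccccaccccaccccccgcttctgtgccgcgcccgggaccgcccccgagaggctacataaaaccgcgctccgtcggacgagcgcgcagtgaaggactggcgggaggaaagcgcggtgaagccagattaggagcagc
Fos, chr12:85473640-85473939, plus strand: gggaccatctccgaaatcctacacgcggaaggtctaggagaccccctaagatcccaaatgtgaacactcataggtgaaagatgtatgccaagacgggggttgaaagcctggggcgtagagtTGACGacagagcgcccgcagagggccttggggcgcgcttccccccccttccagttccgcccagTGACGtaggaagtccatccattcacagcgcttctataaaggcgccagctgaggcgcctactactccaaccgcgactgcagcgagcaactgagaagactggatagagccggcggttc

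The *Sik2* window holds the core in 2 places and the *Sik3* window in 3. *Dusp1* was the only gene shown with the full CRE, and *Fos* holds the core in 2 places. A match is a run of letters and not a measured binding site.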

How the data were processed

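Bulk RNA-seq of 19 libraries of sorted neoplastic cells was used. Part of the genotype that all groups share is not reported here. The authors aligned paired reads to mm10 with STAR 2.6.1d and made the deposited expected counts and TPM with RSEM 1.2.30. Expected counts are estimates per gene, without normalization, and TPM are the same estimates corrected for length and scaled per library by the authors. Tables with the authors' own normalized counts, fold changes and p-values from DESeq2 1.26.0 were deposited too and not used here. The annotation release and strand setting of the counting are not given in the sources used here.

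Expected counts were rounded. Genes were kept by filterByExpr (minimum count 10, total 15), scaled by TMM and fitted in 1 model of all 19 libraries with edgeR 4.0.16 (glmQLFit, glmQLFTest) in R 4.3.3. Adjusted p-values are Benjamini-Hochberg over 13986 genes, called under 0.05. Log2 CPM had a prior count of 2. limma 3.58.1 and DESeq2 1.42.0, other scalings, no filter, length offsets, covariates and subsets of libraries served as alternatives. SE is the log2 fold change over the root of F. The scripts were tested on simulated data. Python 3.11.15 with scipy 1.17.1 and matplotlib 3.10.9 was used for the exact tests and plots.

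Depth was 2760731 to 9944134 counts per library, and intervals cover the spread between libraries, some of which share an animal. The members and the gene lists were chosen with earlier results of these data known. The text names all 10 members, for each the gene most like it, and up to 4 genes per list and comparison that passed the threshold. Alternatives for the list genes were added after seeing the data. Coordinates are from GENCODE vM21 (GRCm38), promoters from RefSeq.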

Additional observations from a re-analysis of the deposited data

How the results depend on the processing

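The calls of *Stk11* lower and *Sik1* higher in sgLkb1 than in sgInert held in all 13 other fits and in all 19 fits with 1 library left out. Leaving out 1 library, *Stk11* ranged from -1.39 to -1.18, and the number of members called ranged from 2 to 3 in sgLkb1 against sgInert, from 0 to 2 in sgCebpa/b/d against sgInert and from 1 to 2 in sgLkb1 against sgCebpa/b/d. For the order of levels in sgInert, 0 neighbouring pairs passed in every such fit, as in log2(TPM + 0.1) and in counts per kilobase. Of sgCebpa/b/d against sgInert, 0 members were called in limma on log2(TPM + 1) and log2(TPM + 0.1), with title series as a covariate and without unnumbered libraries, and 1 with effective length offsets, the replicate block, MT-numbered libraries only, only the 2 groups compared, or a log2 fold change above 1 as well. Of sgLkb1 against sgCebpa/b/d, 2 were called in both limma fits, with title series as a covariate, in MT-numbered libraries and with only the 2 groups compared. The cause was not tested. In limma on TPM the median of all genes moved to 0.18 and 0.21 in sgLkb1 against sgInert, and to 0.15 and 0.19 against sgCebpa/b/d, which changes near 0 must be read against.

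The main fit did not pair libraries by replicate number. The 17 same-numbered pairs between groups had correlations of -0.39 to 0.42, of which 7 were above 0.1. Pairs with unlike numbers were not compared with them, so these values cannot decide whether the numbers pair the samples. With the replicate block *Stk11* was at -1.21 and *Sik1* at 1.39 in sgLkb1 against sgInert, *Sik2* passed at 1.22 (edgeR adjusted p = 0.0287), and *Sik1* in sgCebpa/b/d did not at 0.71 (edgeR adjusted p = 0.0845).

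Values that were not called changed sign in other fits as follows. Not all were near 0, since *Crtc3* was at -0.33 in sgLkb1 and -0.34 in sgCebpa/b/d against sgInert in the main fit. *Crtc3* in sgLkb1 against sgInert was 0.047 and 0.069 in the limma fits (TPM + 1, TPM + 0.1), 0.24 with title series and 0.16 in MT-numbered libraries. *Crtc3* in sgCebpa/b/d against sgInert was 0.12 and 0.13 in limma, 0.13 with length offsets, 0.23 with title series and 0.29 in MT-numbered libraries. *Crtc3* between sgLkb1 and sgCebpa/b/d was -0.071 and -0.065 in the limma fits, -0.37 with length offsets, -0.13 in MT-numbered and in numbered libraries, and -0.021 with animals summed. *Strada* there was 0.11 and 0.13 in limma, 0.23 with sex, 0.15 with the replicate block, 0.37 in MT-numbered and 0.38 in numbered libraries. *Sik2* there was 0.17 with sex, 0.12 with the replicate block, 0.23 in MT-numbered and 0.24 in numbered libraries, and *Cab39* was 0.087 and 0.088 in the limma fits. With sex as a covariate *Cab39* in sgLkb1 was -0.012, and *Stradb* and *Sik3* in sgCebpa/b/d were 0.011 and 0.012 against sgInert. *Sik3* in sgLkb1 was -0.041 with title series, and *Stradb* and *Sik3* in sgCebpa/b/d were 0.082 and 0.0026 with animals summed. With 1 library left out, signs also turned for *Sik3* in sgLkb1 against sgInert (-0.013 to 0.13), for *Stradb* (-0.089 to 0.071) and *Sik3* (-0.10 to 0.058) in sgCebpa/b/d against sgInert, and for *Strada* (-0.29 to 0.041) and *Crtc3* (-0.090 to 0.17) between the targeted groups.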
